A study of Mus musculus with 2 samples.

Results

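Granzyme B low, non-cycling CD8 T cells were studied in MC38 tumours. MC38 is a line of colorectal cancer cells from the mouse that grows as a tumour after engraftment. The cells were chosen by their own UMI counts (unique molecular identifiers, each standing for 1 captured RNA molecule). A member had at least 1000 UMIs, at least 2 of Cd3e, Cd3d and Cd3g together and at least 2 of Cd8a and Cd8b1. It had no Foxp3 UMI, at most 1 of the macrophage genes Csf1r, Adgre1 and Fcgr1, at most 1 of the proliferation genes Mki67 and Top2a, at most 2 of Gzmb, and at most 1 of Tcf7 and Lef1. These limits selected 493 of 11246 barcodes, of which 244 came from the TMEM16F KO library and 249 from the vector control library. Because 14 genes set the gate, their levels are given as a description of the members and support nothing.

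CD8 T cells recognise peptides on MHC class I molecules and kill by releasing granules that hold perforin, which opens the target membrane, and granzymes, the proteases that enter through it. Granzyme B is the granzyme best known for starting apoptosis in the target. Its RNA is low in naive and resting memory cells and is induced by antigen and by interleukin signals. In tumours, CD8 T cells exposed to antigen for long also carry inhibitory receptors such as PD-1 (Pdcd1), whose expression is maintained with the factor TOX. Tcf7 and Lef1 mark naive and stem-like cells. The gate thus limits a few marker genes of naive or stem-like, armed and dividing cells. Low counts of these genes do not show that the rest of such a signature is absent.

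The KO group was untreated mice engrafted with MC38 cells in which TMEM16F had been knocked out, and the control group was untreated mice engrafted with vector control MC38 cells. Both were sampled at day 21, with 1 library per group. TMEM16F is a calcium-activated phospholipid scramblase encoded by Ano6, and the knockout is in the engrafted tumour cells, so the T cells come from the host and carry the normal gene. The labels do not state the strain, age or sex of the mice, how many mice stand behind a library, or whether the KO line is 1 clone. The study asked how the immune cells of the tumour differ when the tumour cells lack TMEM16F.

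With 1 library per group there was no replicate and no test. The effect of the knockout and any other difference between these tumours or their handling cannot be told apart. Every interval is an exact 95% interval for counting error only: Poisson for summed UMIs, Clopper-Pearson for shares of cells and conditional binomial for ratios. Such intervals are too narrow where a gene's UMIs sit in few cells, and the share held by the 5 cells with the most UMIs is given where it bears on a value. Expression is given as CPM, the gene's share of all UMIs of the cells summed, scaled to counts per 1000000. A gene was measured with at least 100 summed UMIs and was past the fold at a ratio of at least 1.5 either way. In counts over gene lists, higher and lower mean a ratio above or below 1, and the number past the fold is given beside them.

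The TMEM16F KO library held 5993 barcodes and 49777630 UMIs, and the vector control library held 5253 barcodes and 46338994 UMIs. The study states 10782 cells, and 5655 KO and 4770 control barcodes had at least 1000 UMIs. The libraries shared 10 barcode sequences, of which 1 was a member in the KO library and none was a member in both. The members had 1239459 summed UMIs in the KO library and 1461104 in the control library. Their median was 4468 UMIs and 1660 genes per cell in the KO library, against 5238 UMIs and 1761 genes in the control library. Mitochondrial UMIs were a median 0.0670% of a member's total in the KO library and 0.0544% in the control library. Ano6 itself (ENSMUSG00000064210, chromosome 15, positions 95790843 to 95974751, plus strand, GRCm38) was at 28.2 CPM (19.7 to 39.3; 35 UMIs) in KO members and 20.5 CPM (13.9 to 29.3; 30 UMIs) in control members, a ratio of 1.38 (0.820 to 2.32). This checks nothing about the deletion, which the host's T cells do not carry.

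The cells had the T cell identity that their label gives them. Beyond the genes of the gate, all 14 T cell identity genes were measured. Trbc2, a constant chain of the T cell receptor, was at 1649 CPM in KO members and 1168 CPM in control members. After every cell was thinned to 1000 UMIs, Trbc2 was seen in 66.4% and 62.2% of KO and control members, against 1.17% and 0.454% of KO and control macrophage barcodes. Those macrophage barcodes had at least 3 UMIs of Csf1r, Adgre1 and Fcgr1 and none of the Cd3 and Cd8 genes, and numbered 1198 and 1102 with median depths of 9864.5 and 11914 UMIs. Before thinning, Trbc2 had a UMI in 96.7% and 95.2% of KO and control members and in 8.26% and 6.90% of the macrophage barcodes. The macrophage barcodes serve below as the background for T cell genes. They were chosen to lack Cd3 and Cd8 UMIs, so they may understate the T cell RNA that is free in the sample.

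Markers of other lymphocytes had few UMIs. The summed CD4 T cell markers Cd4 and Cd40lg stood at 12.1 CPM in KO and 8.21 CPM in control members, and the NK cell markers at 18.6 CPM (23 UMIs) and 4.79 CPM (7 UMIs), with Ncr1 at 10 UMIs in KO and 0 in control members. The 4 gamma delta T cell receptor genes stood at 18.6 CPM (23 UMIs) in KO and 34.2 CPM (50 UMIs) in control members, against 1.55 and 0.802 CPM in KO and control macrophage barcodes. Over all barcodes of at least 1000 UMIs outside the CD8 T cells they stood at 21.0 CPM in KO and 15.9 CPM in control. KO members were thus not above that level, while control members (25.4 to 45.1) were. Members of both libraries were above the macrophage barcodes. The barcodes outside the CD8 T cells were not cleared of other lymphocytes, so they are not a background of free RNA alone. Whether the members include gamma delta T cells was not tested. Zbtb16 had no UMI in either group of members. Of the 3 B cell markers Cd79a and Ms4a1 had none, and Ighm had 29 UMIs (23.4 CPM) in KO and 14 UMIs (9.58 CPM) in control members, against 13.5 and 16.8 CPM in KO and control macrophage barcodes. The neutrophil markers had 3 and 1 UMIs, the dendritic cell markers 3 and 9 UMIs, and the stroma markers 33.1 and 38.3 CPM in KO and control members.

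Macrophage transcripts were present in nearly every member and were more abundant in the KO library. The 9 macrophage markers, none of them at 0 in either library, summed to 4810 CPM (4689 to 4934) in KO members and 3060 CPM (2971 to 3151) in control members. A cell held between 1 and 387 such UMIs (median 13) in the KO library and between 1 and 388 (median 8) in the control library. Only 2 members in each library had no UMI of C1qa, C1qb, C1qc, Lyz2 and Apoe. These 5 genes made up a median 0.171% of a KO member's UMIs and 0.0887% of a control member's, while Gzmb high CD8 T cells had medians of 0.156% in KO and 0.0747% in control. In the macrophage barcodes themselves the medians were 2.03% and 1.95%. Whether free RNA or cells captured together gave these UMIs was not tested.

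**Figure D1:**
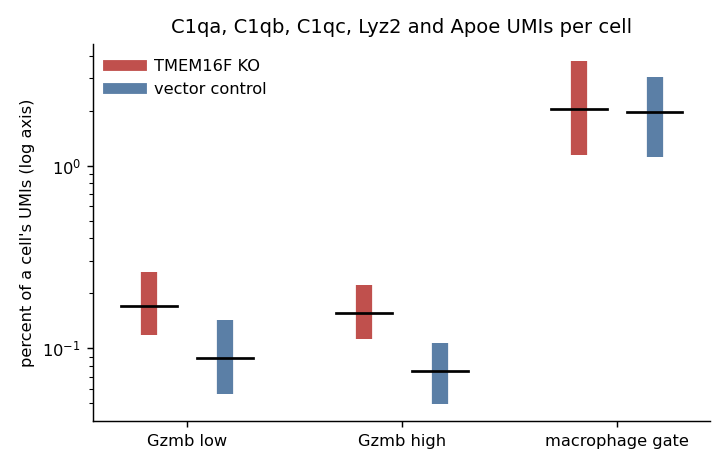
Percent of a cell's UMIs that come from C1qa, C1qb, C1qc, Lyz2 and Apoe (log axis), in TMEM16F KO (red) and vector control (blue) cells of 3 gates. Boxes span the quartiles and black lines are medians: 0.171% and 0.0887% in Gzmb low cells, 0.156% and 0.0747% in Gzmb high cells, 2.03% and 1.95% in macrophage barcodes.

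Granzyme B low cells took a smaller share of the CD8 T cells in the KO library. They were 25.8% (23.1 to 28.8) of 944 KO CD8 T barcodes and 34.8% (31.3 to 38.4) of 715 control ones, a ratio of 0.742 (0.620 to 0.889). Of all barcodes with at least 1000 UMIs they were 4.31% (3.80 to 4.88) in KO and 5.22% (4.61 to 5.89) in control, a ratio of 0.827 (0.690 to 0.990). Without the barcodes of highest doublet score, that ratio was 0.845 (0.702 to 1.02). Gzmb high cells, with at least 3 Gzmb UMIs, were 55.2% of KO and 40.1% of control CD8 T barcodes. Cycling cells were 12.3% and 20.6%, and Tcf7 and Lef1 cells were 6.67% and 4.48%, in KO and control. The Gzmb limit is in raw UMIs, and Gzmb high cells were also deeper, with a median of 5960 UMIs in KO and 6968 in control. With a limit of 4 Gzmb UMIs per 10000 the members numbered 226 in KO and 236 in control, and the ratio of their shares of all barcodes was 0.808.

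**Figure D2:**
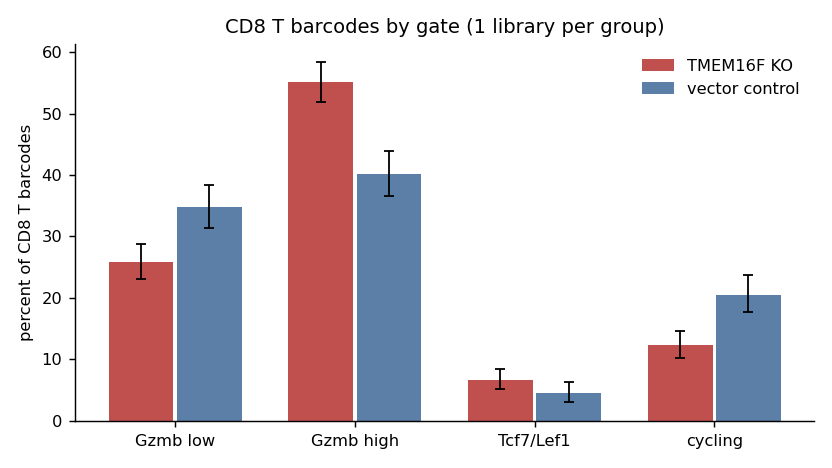
Percent of CD8 T barcodes in each of 4 exclusive gates, TMEM16F KO (red) left of vector control (blue), 1 library each, with exact 95% intervals for counting error as bars. Granzyme B low cells were 25.8% and 34.8%, and Gzmb high cells 55.2% and 40.1%, in KO and control.

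Most members had no Gzmb UMI at all. In the KO library 134 members had 0, 73 had 1 and 37 had 2 Gzmb UMIs, and in the control library 160, 58 and 31 did. Just outside the limit, 54 KO and 31 control cells had 3. Gzmb (ENSMUSG00000015437, chromosome 14, positions 56258838 to 56262260, minus strand, GRCm38) thus averaged 119 CPM in KO and 82.1 CPM in control members, against 3367 CPM in KO and 2944 CPM in control Gzmb high cells. The median member had 20 KO or 25 control UMIs of the Cd3 genes and 7 KO or 8 control UMIs of the Cd8 genes, against limits of 2. At the other limits, 30 KO and 39 control members had 1 UMI of Mki67 or Top2a, 28 KO and 12 control members had 1 of Tcf7 or Lef1, and 40 KO and 34 control members had 1 of the macrophage genes of the gate.

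Against Gzmb high cells, the members had less RNA of the other granzymes and of perforin, Pdcd1, Lag3 and Ctla4 levels within 1.5-fold, and more RNA of Xcl1, Ccr7, Crtam and Tox. Gzmb sets these gates, so what follows describes how the gates differ and is no test. Of 6656 genes measured, 104 (1.56%) were at least 1.5-fold higher and 75 (1.13%) at least 1.5-fold lower in both libraries. For gene lists, a gene was counted by the mean of the log2 ratios of the libraries, here and against the other gates. That is a looser count than past the fold in both libraries. The share of all genes past the fold by the mean was not computed. The list counts therefore cannot be set against shares such as the 1.56% and 1.13%, and they do not show enrichment.

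Most of the granule and killing genes were lower in the members. Of 17 measured, 15 were lower by the mean ratio and 9 of them past the fold, with a median log2 ratio of -0.71 beside 0.02 over all genes. Gzmf was at 187 CPM in KO and 110 CPM in control members, against 3751 CPM in KO and 3051 CPM in control Gzmb high cells. Gzmc was at 108 CPM in KO and 67.8 CPM in control members, against 1282 and 1961 CPM in KO and control Gzmb high cells. Gzmd, Gzme and Gzmg, proteases of the same gene cluster, were also among the 10 genes with the lowest ratios. Gzma, a tryptase of killer cells, was 0.341 (0.287 to 0.402) times the Gzmb high level in KO and 0.0640 (0.0464 to 0.0863) times in control. Prf1, which encodes perforin, was at 207 CPM in KO and 251 CPM in control members, against 562 CPM in KO and 557 CPM in control Gzmb high cells.

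Some other genes of the list differed less than the granzymes and perforin. Nkg7, a granule membrane protein, was at 0.821 times the Gzmb high level in KO and 0.843 times in control, and Srgn, the proteoglycan that packs granules, at 1.12 and 1.04 times. Serpinb9, an inhibitor of granzyme B, was past the fold, at 0.645 and 0.578 times. After thinning, any of 7 other granzymes was seen in 18.4% of KO and 16.9% of control members, against 50.3% and 49.5% of KO and control Gzmb high cells and 5.18% and 3.63% of macrophage barcodes. The members were thus low for several granzymes that the gate did not name.

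Among cytokines and chemokines, 3 of 13 measured genes were higher and 1 was lower past the fold by the mean ratio. Xcl1, the chemokine that draws cross-presenting dendritic cells, was at 1681 CPM in KO and 2656 CPM in control members, against 501 CPM in KO and 1252 CPM in control Gzmb high cells. Its ratio was 3.35 (3.15 to 3.58) in KO and 2.12 (2.02 to 2.23) in control. Ccl5, a chemokine for T cells and monocytes, was at 0.830 times the Gzmb high level in KO and 0.487 times in control. Ifng, the main macrophage-activating cytokine of T cells, was at 0.740 times in KO and 1.04 times in control. The libraries agreed in direction for Xcl1 and Ccl5 and differed for Ifng.

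The inhibitory receptors divided. Havcr2, which encodes TIM-3, was at 0.548 (0.458 to 0.652) times the Gzmb high level in KO and 0.473 (0.384 to 0.580) times in control. Cd244a, the receptor 2B4, was at 0.270 times in KO and 0.249 times in control, and the ectoenzyme gene Entpd1 at 0.655 and 0.627 times. The ratios of Pdcd1, Lag3 and Ctla4 lay between 0.778 and 0.992 times in both libraries. Tox was higher in the members, at 2.20 (1.62 to 2.98) times in KO and 1.88 (1.50 to 2.38) times in control. Cd160, a receptor of the immunoglobulin family, was at 1.79 times in KO and 2.08 times in control. Of 15 measured genes of this list, 2 were higher and 4 lower past the fold by the mean ratio, with a median log2 ratio of -0.08.

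Genes of naive and memory cells were higher in part, although Tcf7 and Lef1 were held low by the gate. Of 9 measured, 3 were higher past the fold and none was lower. Ccr7, the lymph node homing receptor, had the largest ratio: 269 CPM in KO and 149 CPM in control members, against 45.1 CPM in KO and 17.6 CPM in control Gzmb high cells. In KO members 42.8% of the Ccr7 UMIs came from 5 cells, and in control members 30.9%. Bach2, a repressor that holds back effector differentiation, was at 2.17 times the Gzmb high level in KO and 1.78 times in control. Il7r, the receptor for a survival cytokine, was at 1.35 and 1.37 times, and Satb1 at 1.05 and 0.926 times.

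The 10 genes with the highest ratios in both libraries were Ccr7, Bdh2, Pkib, Gypc, Tcf4, Hspb1, Igfbp7, Pou2f2, Nrn1 and Crtam. Crtam, an adhesion receptor of activated CD8 T cells, was 4.15 (2.82 to 6.18) times the Gzmb high level in KO and 2.32 (1.65 to 3.29) times in control. Nrn1, which encodes neuritin, was 2.33 times in KO and 2.79 times in control. The 10 with the lowest were Gzmf, Gzmc, Gzme, Tafa1, Gzmd, Gzmg, Ly6g5b, Cd244a, Neb and Gstm5. Tafa1 had 0 CPM in KO and 0.684 CPM in control members. Tcf4 was at 60.5 CPM in KO and 20.5 CPM in control members, with 86.7% of the KO and 43.3% of the control UMIs in 5 cells. Of the 9 macrophage markers 8 were higher in the members too, with a median log2 ratio of 0.51, and so were all 6 measured MHC class II genes, with a median of 0.51. Their part in the ratios of other genes was not tested.

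**Figure D3:**
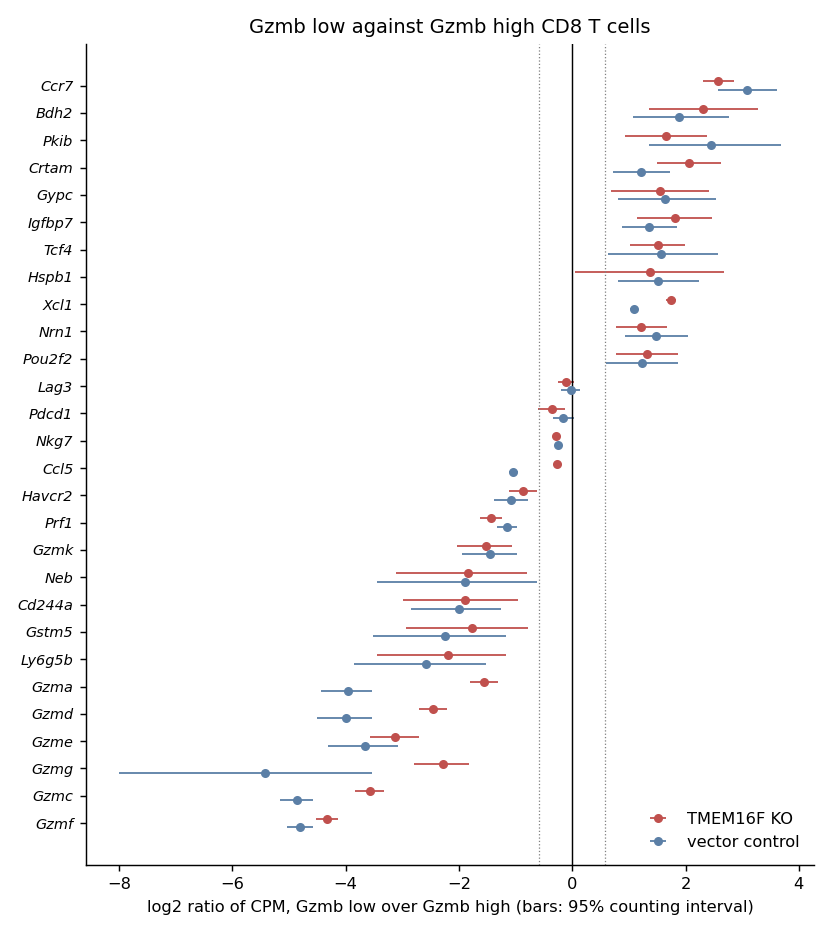
Log2 ratio of CPM in Gzmb low over Gzmb high CD8 T cells for 19 genes with the most extreme ratios and 9 genes of the lists, in TMEM16F KO (red) and vector control (blue), with 95% counting intervals; dotted lines mark 1.5-fold. Granzyme genes lie lowest, Ccr7 highest, and Xcl1 at ratios of 3.35 and 2.12; Tafa1, with 0 CPM in KO members, is not drawn.

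Against Tcf7 and Lef1 cells, 128 genes (2.96%) of 4318 were higher and 88 (2.04%) lower in both libraries, although only 63 KO and 32 control cells formed that gate. The members had less RNA of Klf2, Id3, Zeb1, Ssbp2 and Txk. Klf2, a factor of circulating resting T cells, was at 280 CPM in KO and 244 CPM in control members, against 725 CPM in KO and 642 CPM in control Tcf7 and Lef1 cells. By CPM they also had less Ifit1, Ifit3, Cxcl10, Gzmc and Gzmd, of which Ifit1 was at 0.225 times in KO and 0.138 times in control. After thinning, Gzmc was seen in 2.05% of KO members and 14.3% of KO Tcf7 and Lef1 cells. In control the Gzmc shares were 4.82% and 3.125%. The Gzmd shares were 3.69% and 9.52% in KO and 2.41% and 3.125% in control. With 32 control cells in that gate, a few cells can set the control granzyme values. Ccl1, Cnih2, Plod2, Ptprs, Prelid2, Mgl2, Ccl8, Nrn1, Slc17a6 and Timp2 were the 10 highest. Ccl1, a chemokine of activated T cells, was at 349 CPM in KO and 669 CPM in control members, against 121 and 82.7 CPM in KO and control Tcf7 and Lef1 cells. Of 10 measured inhibitory receptor and exhaustion genes, 4 were higher and none was lower past the fold. Of 8 measured naive and memory genes, 5 were lower past the fold and 1, Ccr7, was higher, with ratios of 2.46 in KO and 1.35 in control. Of the 9 macrophage markers 7 were higher, 5 past the fold, with a median log2 ratio of 0.66, and all 6 measured MHC class II genes were higher. Their part in the other ratios, such as those of Mgl2 and Ccl8, was not tested.

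Against cycling cells, 124 genes (2.01%) of 6174 were higher and 494 (8.0%) lower in both libraries. All 20 proliferation genes outside the rule were lower past the fold, with a median log2 ratio of -2.66. The 10 lowest were Kif4, H3c3, Hmmr, H2ac4, H2ac10, Ccna2, Ska1, Plk1, Pimreg and Anln. Ccna2, the cyclin of S phase, was at 3.23 CPM in KO and 2.05 CPM in control members, against 123 CPM in both KO and control cycling cells. Genes of division outside the gate were thus low along with Mki67 and Top2a, which the gate limits. The 10 highest were Ccl8, Iigp1, Spry1, Slfn1, Ccr7, Tnip3, Slc16a11, Sntb1, Ms4a7 and Kdm5b. Spry1, an inhibitor of growth factor signalling, was 2.81 times in KO and 2.47 times in control. Slfn1, linked to T cell quiescence in mice, was 2.45 and 2.52 times. After thinning, Slfn1 was seen in 1.64% of KO members and 1.72% of KO cycling cells, and in 2.41% and 3.40% of the control ones. Its ratio after thinning was below 1 in both libraries, and those of Iigp1, Tnip3 and Slc16a11 were below 1 in the KO or the control library. Ccl8 and Ms4a7 are macrophage genes, and all 9 macrophage markers were higher against cycling cells, 7 past the fold, with a median log2 ratio of 0.78.

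Between the libraries, KO members summed had less Pdcd1, Tox, Xcl1 and inducible heat shock RNA than control members, and had more Ctla4, Icos, Satb1, Foxo1 and Ly6a. For Xcl1 the libraries lay close in members with no Gzmb UMI, as given below. Of 3533 genes measured, 244 (6.91%) were at least 1.5-fold higher and 102 (2.89%) at least 1.5-fold lower in KO members, with a median log2 ratio of 0.03 over all. Of the same genes, 54.0% had a ratio above 1 and 46.0% a ratio below 1. With mitochondrial, ribosomal protein and haemoglobin genes and Malat1 left out of the total, which moved that median to -0.03, the counts were 182 higher and 134 lower. Ribosomal protein genes were a median 24.0% of a KO member's UMIs and 27.0% of a control member's.

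**Figure D4:**
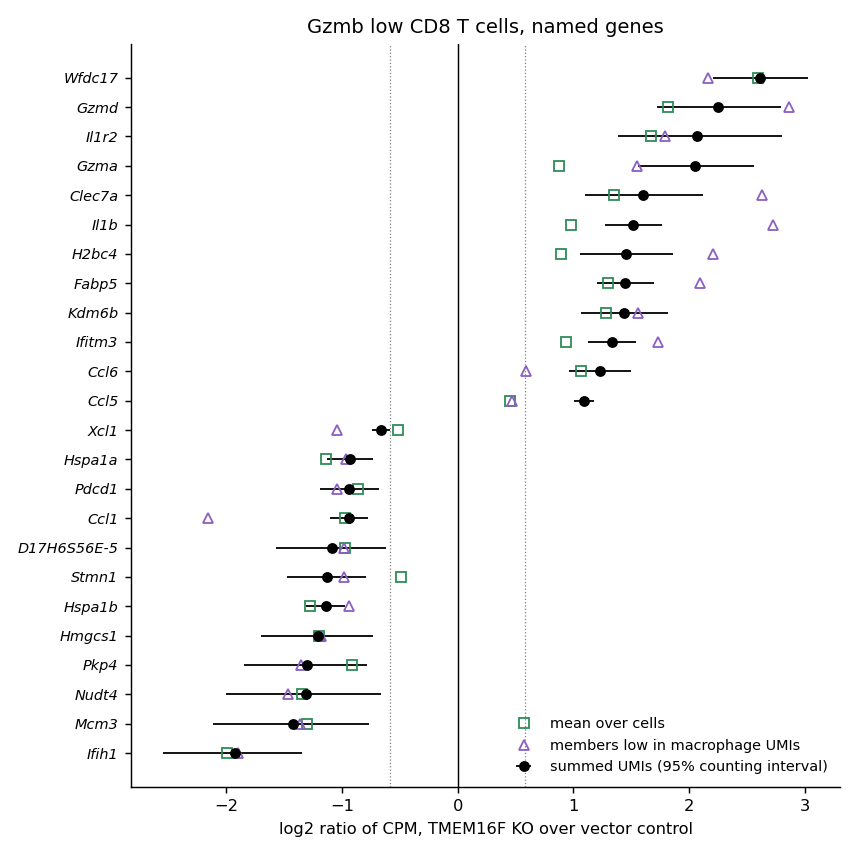
Log2 ratio of CPM, TMEM16F KO over vector control, in granzyme B low CD8 T cells for the 12 genes in each direction whose interval ended farthest from 1. Black points are summed UMIs with 95% counting intervals, green squares the mean over cells and purple triangles members with few macrophage UMIs (71 KO, 176 control). Among those members all 9 macrophage markers were still higher in KO. Dotted lines mark 1.5-fold. Ccl5 moves from a ratio of 2.14 to 1.37 by mean over cells, while Pdcd1 stays between 0.475 and 0.552 under the alternative settings. The groups of members by depth, given in the text, are not among these settings, and their Pdcd1 ratios lie outside that range.

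The inhibitory receptors differed from each other. Pdcd1 (chromosome 1, positions 94038305 to 94052553, minus strand, GRCm38) was at 149 CPM (185 UMIs) in KO members and 285 CPM (417 UMIs) in control members, a ratio of 0.523 (0.437 to 0.623). After thinning, 12.3% of KO and 22.9% of control members had a Pdcd1 UMI, against 0.0835% and 0.0907% of macrophage barcodes. Before thinning, the shares of members were 42.6% in KO and 65.1% in control. The ratio was below 1 in members of under 3000, 3000 to under 6000, and 6000 or more UMIs, at 0.607, 0.594 and 0.432, and at each Gzmb count of 0, 1 and 2. In Gzmb high cells Pdcd1 was at 192 CPM in KO and 318 CPM in control. Tox, the factor linked to PD-1 maintenance, was at 63.7 CPM in KO and 118 CPM in control members, a ratio of 0.538 (0.407 to 0.706), and at 29.0 and 62.9 CPM in KO and control Gzmb high cells. Taken per cell rather than per UMI, the Tox ratio was 0.680.

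Ctla4, which encodes a receptor that competes with CD28 for its ligands, went the other way. It was at 403 CPM (499 UMIs) in KO members and 247 CPM (361 UMIs) in control members, a ratio of 1.63 (1.42 to 1.87). Thinned cells with a Ctla4 UMI were 33.2% of KO and 19.3% of control members, against 0.584% and 0.817% of macrophage barcodes, and before thinning 67.6% and 53.4% of KO and control members. In Gzmb high cells Ctla4 was at 447 CPM in KO and 249 CPM in control. Among members with few macrophage UMIs, and among those with no Gzmb UMI, the Ctla4 ratio stayed above 1 but under the fold, at 1.39 and 1.42. Lag3 was at 1.22 (1.07 to 1.39) and Havcr2 at 1.46 (1.15 to 1.87). Of 17 genes on the inhibitory receptor and exhaustion list 10 were measured, of which 5 were higher and 5 lower, 1 and 2 of them past the fold, with a median log2 ratio of -0.03. At least 2 of 5 inhibitory receptors were seen together in 23.8% (18.6 to 29.6) of thinned KO members and 18.5% (13.9 to 23.9) of control members.

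The costimulatory receptors were mixed as well. Icos was at 265 CPM in KO and 155 CPM in control members, a ratio of 1.71 (1.44 to 2.03). The Icos ratio was 1.37 in members with no Gzmb UMI and 1.48 after thinning, both under the fold. Cd81, a tetraspanin, was at 0.640 (0.446 to 0.909). The Cd81 ratio was 1.10 without the highest doublet scores and 1.32 in members with few macrophage UMIs. Tnfrsf9, the activation receptor 4-1BB, was at 1.24 and Tnfrsf4, the receptor OX40, at 0.691. Of 10 measured, 4 were higher and 6 lower, with 1 past the fold each way.

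Among cytokines and chemokines, Xcl1 was lower and Ccl5 higher in KO members. Xcl1 (chromosome 1, positions 164931644 to 164935527, minus strand, GRCm38) was at 1681 CPM in KO and 2656 CPM in control members, a ratio of 0.633 (0.60 to 0.67). Thinned cells with an Xcl1 UMI were 25.4% of KO and 39.8% of control members, against 1.84% and 1.09% of macrophage barcodes, and before thinning 38.5% and 63.9% of KO and control members. The 5 cells with the most held 39.6% of the KO and 39.4% of the control UMIs. The Xcl1 difference varied with the few Gzmb UMIs within the gate. Members with no Gzmb UMI had Xcl1 at 2277 CPM in KO and 2502 CPM in control, those with 1 had 1355 CPM in KO and 2244 CPM in control, and those with 2 had 373 CPM in KO and 4251 CPM in control. Cells with 3 Gzmb UMIs, outside the gate, had 355 CPM of Xcl1 in KO and 2636 CPM in control. In these sums Xcl1 stood lower at each added Gzmb UMI in KO members and did not in control members. Members with 2 Gzmb UMIs were only 37 in KO and 31 in control, so a few cells can set such a value. Gzmb also sets the gate, so the pattern is a description and was not tested.

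Ccl5 (chromosome 11, positions 83525778 to 83530518, minus strand, GRCm38) was at 2543 CPM (3152 UMIs) in KO members and 1191 CPM (1740 UMIs) in control members, a ratio of 2.14 (2.01 to 2.27). The ratio differed with the depth of the cell. In members of under 3000 UMIs Ccl5 was at 4063 CPM in KO and 5491 CPM in control, in those of 3000 to under 6000 UMIs at 2968 and 1787 CPM in KO and control, and in those of 6000 or more at 1768 and 419 CPM. Weighting cells equally gave 1.37, and thinned cells gave 1.29. Thinned cells with a Ccl5 UMI were 54.1% of KO and 41.0% of control members, against 19.9% and 12.4% of macrophage barcodes, and before thinning 77.5% and 64.7% of KO and control members. The Ccl5 difference was thus largest among deep cells and reversed among the shallowest.

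Ifng was at 957 CPM in KO and 1298 CPM in control members, a ratio of 0.737 (0.685 to 0.793), with 34.1% of the control UMIs in 5 cells. Thinned cells with an Ifng UMI were 47.5% of KO and 47.0% of control members. Csf2, which encodes a myeloid growth factor, was at 35.5 CPM in KO and 71.2 CPM in control members, and Tnfsf10, the death ligand TRAIL, at 50.8 and 78.7 CPM. The Csf2 ratio was 0.499, but 0.102 after thinning and 0.685, under the fold, in members with no Gzmb UMI. The Tnfsf10 ratio was 0.646, but 0.962 in members with no Gzmb UMI and 0.752 after thinning. Ccl4 was at 1.32 (1.26 to 1.39) and Tnf at 1.30 (1.10 to 1.55). Ccl1, from a list of genes named by size, was at 349 CPM in KO and 669 CPM in control members, with 58.9% of the KO and 51.9% of the control UMIs in 5 cells. Of 15 listed cytokines and chemokines 11 were measured, 5 of them higher and 6 lower, 1 and 3 past the fold, with a median log2 ratio of -0.23.

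The granule and killing genes were higher in KO members in count, but few cells held the granzyme UMIs. Of 18 listed 14 were measured, 10 of them higher and 4 lower, with 6 higher past the fold and a median log2 ratio of 0.36. Gzma was at 127 CPM (158 UMIs) in KO and 30.8 CPM (45 UMIs) in control members, and Gzmd at 123 CPM (153 UMIs) and 26.0 CPM (38 UMIs). The 5 cells with the most held 60.1% and 64.4% of the Gzma and 68.0% and 76.3% of the Gzmd UMIs in KO and control. Thinned cells with a Gzma UMI were 6.15% (3.48 to 9.94) of KO and 4.02% (1.94 to 7.26) of control members. When the Gzmb limit was set per 10000 UMIs, the Gzma ratio was 0.616 in place of 4.14. Gzmc was at 1.60 and Gzmf at 1.71. In members with few macrophage UMIs the Gzmc ratio was 0.430, Gzmf was at 1.05 and the median of the list was 0.03.

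The genes of this list that were spread over more cells were the granzyme inhibitors and granule components. Serpinb9, which blocks granzyme B in the killer cell itself, was at 182 CPM in KO and 99.9 CPM in control members, a ratio of 1.82 (1.47 to 2.25), and Serpinb6b, a related inhibitor, at 1.58 (1.34 to 1.88). Serpinb9 was at 282 CPM in KO and 173 CPM in control Gzmb high cells. Nkg7 was at 1.10 (1.05 to 1.15) and Srgn at 1.33 (1.27 to 1.40). Prf1 was lower, at 207 CPM in KO and 251 CPM in control members, a ratio of 0.825 (0.701 to 0.971), and Ctsw, a cathepsin of killer cells, was at 0.830.

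Most of the measured naive and memory genes had more RNA in KO members. Of 14 listed 7 were measured, 6 of them higher and 4 past the fold, with a median log2 ratio of 0.67. Satb1, a chromatin organiser of T cells, was at 211 CPM (261 UMIs) in KO and 97.2 CPM (142 UMIs) in control members, a ratio of 2.17 (1.76 to 2.68). Thinned cells with a Satb1 UMI were 20.1% of KO and 10.8% of control members, against 0.751% and 0.272% of macrophage barcodes, and before thinning 53.7% and 30.5% of KO and control members. Foxo1, which drives Il7r and lymph node homing genes, was at 108 CPM in KO and 41.7 CPM in control members, a ratio of 2.59 (1.90 to 3.57). Ccr7 was at 1.81 (1.52 to 2.16; 1.36 by the mean over cells), Bach2 at 1.59 (1.30 to 1.94) and Il7r at 1.48 (1.22 to 1.79). Bcl2, the survival factor, was the one measured gene that was lower, at 0.839 (0.687 to 1.02). The share of thinned members with a Ccr7 UMI was 11.1% in KO and 10.8% in control. In Gzmb high cells the median of the same 7 genes was 0.59.

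Of the residency and migration list, 13 of 18 were measured, 10 higher and 3 lower, 3 of the higher ones past the fold. Cxcr4 at 2.73 (1.81 to 4.18), Ccr2 at 2.72 (1.82 to 4.14) and Cd69 at 1.54 (1.37 to 1.72) were those 3. After thinning, Cxcr4 was at 1.15 and Ccr2 at 1.66, and Cd69 ranged from 1.42 to 1.55 over the alternatives and was under the fold in several. Cxcr4 and Ccr2 are also expressed by macrophages and monocytes, with thinned shares of 11.4% and 12.3% in KO macrophage barcodes against 3.28% and 4.51% in KO members. Cxcr6, a receptor of tumour-resident CD8 T cells, was at 0.947 (0.803 to 1.12). The effector transcription factors were 8 higher and 3 lower of 11 measured, and 1 was past the fold each way, Zeb2 at 1.76 and Ikzf2, which encodes Helios, at 0.559. The Ikzf2 ratio was 0.742 after thinning and 0.715 in members with no Gzmb UMI, and that of Zeb2 1.48 after thinning. Zeb2 is also expressed by macrophages, at 458 CPM in KO and 375 CPM in control macrophage barcodes. Past the fold were 2 of 12 measured T cell receptor signalling genes, 2 of 13 survival genes and 1 of 5 killer lectin-like receptors, all higher.

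Interferon response genes were higher in 15 of 18 measured, 5 of them past the fold, with a median log2 ratio of 0.44. The rise was not particular to the members. Summed over the 28 listed genes, the KO over control ratio was 1.37 in members and 1.35 in macrophage barcodes. It was 1.42 in cycling, 1.19 in Gzmb high and 1.03 in Tcf7 and Lef1 cells. Ly6a, the surface protein Sca-1, was at 922 CPM (1143 UMIs) in KO and 457 CPM (668 UMIs) in control members, a ratio of 2.02 (1.83 to 2.22). Ly6a had ratios between 1.76 and 2.28 in all depth groups of members and at 1019 and 534 CPM in KO and control Gzmb high cells. Macrophage barcodes also held Ly6a, at 1817 CPM in KO and 1156 CPM in control. Gbp2 and Igtp, interferon-induced GTPases, were at 2.19 and 2.10, Ifitm1 at 1.61 (1.20 by the mean over cells) and Ifitm3 at 2.52, of which Ifitm3 stood at 1955 and 1231 CPM in KO and control macrophage barcodes. Psmb8 and Psmb9, subunits of the immunoproteasome, were at 1.02 and 0.897. Ifih1, which encodes a sensor of viral RNA and was named by size, was at 24.2 CPM in KO and 91.7 CPM in control members, with 56.7% and 66.4% of its UMIs in 5 cells.

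Of the 22 immediate early and stress genes, 15 were higher and 7 lower in KO members, 4 and 3 of them past the fold, with a median log2 ratio of 0.27. The 3 lower ones were heat shock genes. Hspa1b, the inducible chaperone HSP70, was at 324 CPM (402 UMIs) in KO and 715 CPM (1044 UMIs) in control members, a ratio of 0.454 (0.404 to 0.510), and its neighbour Hspa1a at 0.525 (0.457 to 0.602). The near-identical coding sequences of this pair make the split of reads between them uncertain. Hsph1, a partner of HSP70, was at 0.605 (0.489 to 0.746), and at 0.755 in members with no Gzmb UMI. The other heat shock genes of the list were not past the fold, with Dnajb1 at 0.962, Hspa8 at 1.03, Hspa5 at 1.05, Hsp90aa1 at 0.833 and Hsp90ab1 at 0.861. Hspa1b was also lower in KO Gzmb high cells, at 303 CPM in KO and 750 CPM in control. Outside the T cells, Hspa1b was at 105 CPM in KO and 247 CPM in control macrophage barcodes. Egr1 at 1.85, Fosb at 1.65, Btg1 at 1.67 and Nfkbia at 1.53 were higher past the fold in KO members, while Dusp1 was at 1.01 and Fos at 0.893. Of these, Btg1 alone stayed past the fold under all 11 alternative settings. Such genes also respond to tissue handling, which cannot be told apart from the genotype of the tumour with 1 library each.

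Metabolic genes differed little. None of 15 measured glycolysis genes was past the fold, with 7 higher, 8 lower and a median log2 ratio of -0.03. Of 19 oxidative phosphorylation genes 16 were lower in KO members, with a median of -0.14 and none past the fold. Gene by gene these ratios lay between 0.703 (Sdhd) and 1.21 (Sdhb).

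The proliferation genes outside the rule were lower in 8 of 9 measured, 4 of them past the fold, with a median log2 ratio of -0.36. Stmn1, a microtubule regulator of dividing cells, was at 81.5 CPM in KO and 179 CPM in control members, a ratio of 0.456 (0.359 to 0.576). Mcm3, a subunit of the replicative helicase, was at 21.0 CPM in KO and 56.1 CPM in control members, and Dut at 0.572 (0.858 after thinning). Per cell, Stmn1 was at 0.712, under the fold. Macrophage barcodes held more Stmn1 than members, at 121 CPM in KO and 264 CPM in control. Summed over the 20 listed genes, the KO over control ratio was 0.877 in members, 0.928 in Gzmb high cells and 0.678 in macrophage barcodes. The gate limits Mki67 and Top2a to 1 UMI, so little division-related RNA could pass. Whether the RNA measured came from the members themselves was not tested. Members with 1 UMI of Mki67 or Top2a were 12.3% of KO and 15.7% of control members. None of the 14 T cell identity genes was past the fold. Their ratios ran from Cd5 at 0.750 to Trbc2 at 1.41, above 1 in 12, with a median log2 ratio of 0.22.

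**Figure D5:**
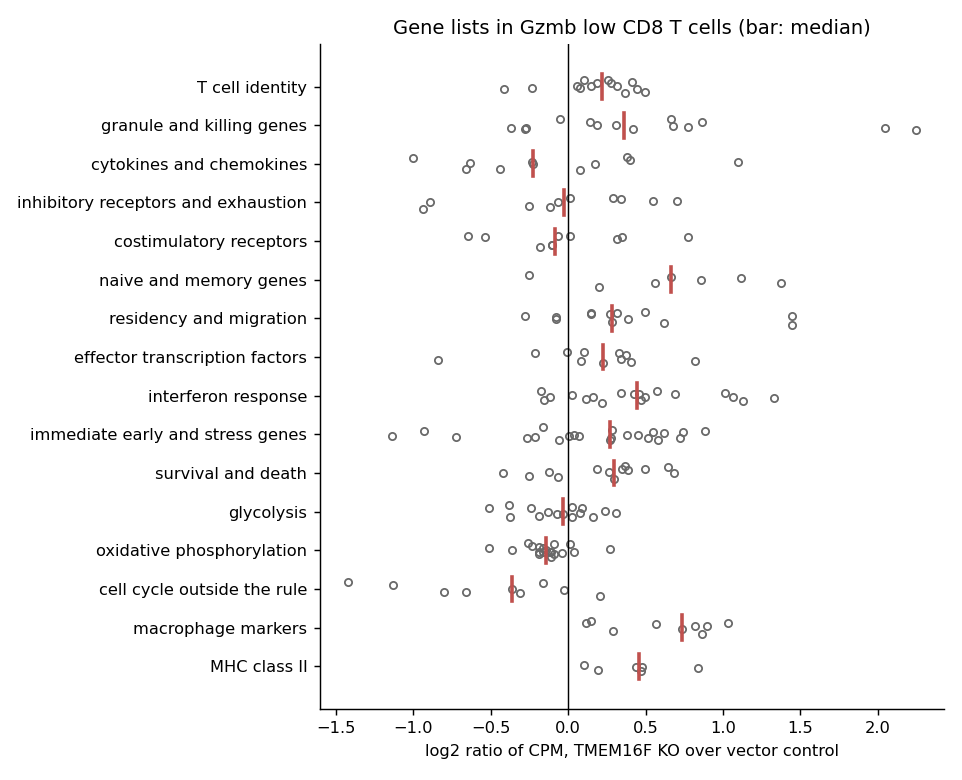
Log2 ratio of CPM, TMEM16F KO over vector control, of each measured gene (circles) of 16 lists in granzyme B low CD8 T cells, with the list's median as a red bar; circles are spread vertically for legibility. Macrophage markers (median 0.74) and naive and memory genes (0.67) lie highest, and proliferation genes (-0.36) lowest.

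The 12 genes higher in KO members whose intervals ended farthest from 1 were Wfdc17, Gzmd, Gzma, Il1r2, Il1b, Fabp5, Ifitm3, Clec7a, Kdm6b, H2bc4, Ccl5 and Ccl6. Several were also abundant in macrophage barcodes. Wfdc17 was at 255 CPM in KO and 41.7 CPM in control members, a ratio of 6.11 (4.63 to 8.17), with 923 and 456 CPM in KO and control macrophage barcodes. Il1b, Fabp5, Clec7a and Ccl6, at 2.87, 2.73, 3.03 and 2.34, were also at higher CPM in macrophage barcodes than in members. All 9 macrophage markers were higher in KO members, from C1qc at 1.09 to Apoe at 2.05, with a median log2 ratio of 0.74, and so were all 6 measured MHC class II genes, with a median of 0.46. Kdm6b, a histone demethylase, was at 161 CPM in KO and 59.5 CPM in control members, a ratio of 2.71 (2.10 to 3.53). In macrophage barcodes Kdm6b was at 109 CPM in KO and 85.5 CPM in control, so it stood above the macrophage level in KO members and below it in control members.

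The 12 lower genes were Ifih1, Hspa1b, Stmn1, Pkp4, Ccl1, Mcm3, Hspa1a, Hmgcs1, Pdcd1, Nudt4, D17H6S56E-5 and Xcl1. Hmgcs1, an enzyme of cholesterol synthesis, was at 40.3 CPM in KO and 93.1 CPM in control members, a ratio of 0.433 (0.307 to 0.604). Hmgcs1 was also lower in Gzmb high cells, at 71.5 CPM in KO and 156 CPM in control, and in macrophage barcodes, at 38.5 and 83.9 CPM. Pkp4, a junction protein, was at 33.9 CPM in KO and 83.5 CPM in control members and at 17.5 and 53.6 CPM in KO and control Gzmb high cells. Of the 24 named genes, 23 kept their direction and 19 stayed past the fold under all 11 alternative settings. Not all 11 could move a ratio. The mitochondrial and gene filter kept the same 244 KO and 249 control members. A lower limit of summed UMIs changed only which genes were measured. The TMM factors, 0.999 in KO and 1.001 in control, could move ratios only slightly. The 24 genes were also picked from these same data by their intervals, so such counts can overstate stability. Of 41 further list genes past the fold, 38 kept their direction and 12 stayed past the fold, namely Btg1, Ccr2, Foxo1, Gbp2, H2-Aa, Igtp, Klrc2, Ly6a, Ms4a7, Pim1, Satb1 and Serpinb9.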

How the data were processed

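Tumour cells were captured with the 10x Genomics droplet method, which reads transcripts at their 3′ end, per the labels' protocols. Each deposited matrix gives UMI counts as whole numbers, with no normalisation. The headers name Cell Ranger 8.0.0 as the program that wrote them, and the submitters' processing notes name mm10 and Seurat 3.1.1. No label or header gives cell types or cell filters.

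Scripts in Python 3.11.15 (numpy 2.4.6, scipy 1.17.1, pandas 2.3.3, matplotlib 3.10.9) applied the gate, summed UMIs per library and gate, and computed CPM, ratios and exact 95% intervals. No cell was clustered and no doublet was removed from the members. Scrublet (scanpy 1.11.5) marked 0 of 5993 KO and 0 of 5253 control barcodes by its own threshold, so that threshold could remove none. Whether its scores single out doublets in these data was not tested. As an alternative, the 287 KO and 221 control barcodes of highest score were left out, which took 11 KO and 15 control members. Shares of cells used 1000 UMIs drawn from each cell (seed 1), which loses no member. A TMM factor came from edgeR 4.0.16 in R 4.3.3. Positions are from GENCODE on GRCm38, in which 32236 of 34290 listed gene IDs matched. On simulated counts of 3539 genes, 95.4% of the intervals for the KO over control ratio held the true ratio. Those counts were drawn from the Poisson model that the intervals assume, with no variation between cells. The simulation thus checks the computation and not whether the intervals fit these data.

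Between libraries, the named genes are the 12 in each direction, past 1.5-fold, whose interval ends farthest from 1. Gate, mitochondrial, ribosomal protein, haemoglobin and receptor variable genes and unnamed gene models were left out. Between gates, they are the 10 in each direction with the largest ratio in the library where it is smaller. Genes of lists were added. The members, lists and tests were chosen with earlier results of these data known.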

Additional observations from a re-analysis of the deposited data

Results flagged for a closer look

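Each of 4 genes stood past 1.5-fold in opposite directions in granzyme B low and Gzmb high cells, and the difference was not tested for any of them. Naaa was at 0.511 in granzyme B low and 1.90 in Gzmb high cells, KO over control. Cxcl9, an interferon-induced chemokine that macrophages also make, was at 0.578 and 2.03. Trim35 was at 0.518 and 1.67. Gzmc was at 1.60 in granzyme B low and 0.654 in Gzmb high cells, with 80.6% of the KO and 60.6% of the control UMIs of the granzyme B low cells in 5 cells.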

How the results depend on the processing

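No paired analysis was possible because each group has 1 library, and no result rests on replicates. The share of all barcodes had ratios from 0.808 to 0.845 under 4 alternatives, and the share of CD8 T barcodes a ratio of 0.742. Counts of genes past 1.5-fold moved with several settings, and the cause was not tested. KO over control, 49 were higher and 18 lower after thinning (715 measured), 683 and 555 with at least 30 summed UMIs (7002 measured), and 152 and 61 in members with no Gzmb UMI (2201 measured). Against Gzmb high cells, 25 were higher and 17 lower after thinning, 293 and 188 with at least 30 UMIs, 317 and 309 in the KO library alone, and 436 and 283 in the control library alone. With the Gzmb limit per 10000 UMIs 186 were higher. Against Tcf7 and Lef1 cells, 61 were higher and 15 lower after thinning, 367 and 320 with at least 30 UMIs, 309 and 289 in KO alone, and 712 and 608 in control alone, and 153 were lower by the mean over cells. Against cycling cells, 32 were higher and 71 lower after thinning, 290 and 872 with at least 30 UMIs, 403 and 908 in KO alone, and 391 and 876 in control alone.

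Some genes turned direction, and the cause was not tested. KO over control, Mcm6 was at 1.28 after thinning, Gzma at 0.616 with the Gzmb limit per 10000 UMIs, and Cd81 at 1.10 without the highest doublet scores. Between gates, Tafa1 was at 274 in KO against Gzmb high cells with that Gzmb limit, and Plod2 at 0.775 in KO against Tcf7 and Lef1 cells after thinning. Against cycling cells after thinning, Iigp1 was at 0.951 in KO, Slfn1 at 0.951 in KO and 0.708 in control, Tnip3 at 0.590 in control and Slc16a11 at 0.827 in control. Leaving out members with any UMI of C1qa, C1qb, C1qc, Lyz2 and Apoe could give no value, since 2 members of each library would remain. In its place, chosen after seeing the data, members at or below the median share of 0.125% were used, 71 in KO and 176 in control. There 208 genes were higher and 99 lower, Gzmc was at 0.430 and Cd81 at 1.32. All 9 macrophage markers were still higher in KO among these members, with a median log2 ratio of 0.56, beside 0.74 over all members. Of 6 measured MHC class II genes 5 were higher, with a median of 0.65. This choice of members therefore did not remove the difference in macrophage RNA between the libraries.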
